A study of Homo sapiens with 4 samples.

Results

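The genes examined were 9 factors of mRNA deadenylation, the removal of the poly(A) tail that starts the decay of most mRNAs. They were the zinc-finger proteins ZFP36, ZFP36L1 and ZFP36L2, the adaptors TOB1, TOB2, BTG1 and BTG2, and the PAN2 and PAN3 subunits of the PAN2-PAN3 deadenylase. They were taken by symbol from the sgRNA count table of a genome-wide CRISPR-Cas9 knockout screen and made up 9 of 19111 genes, with 36 of 76171 gene-targeting sgRNAs that had reads. The genes were selected on their shared function and on their fold changes of HQ461 over DMSO in this same table, which were known beforehand, so those values are given as a description with no test.

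A549, a human lung adenocarcinoma line, carried the Brunello library, a pool of lentiviral sgRNAs for Cas9 in which most genes are targeted by 4 different sgRNAs. After puromycin selection the cells were passaged for 3 weeks in 4 µM HQ461, a molecular glue that leads to loss of cyclin K, or in 0.1% DMSO as the vehicle. The labels name 2 replicates of each condition, which the methods of the study call biological. The deposited table holds 1 column per condition, so no difference below has a replicate check.

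The screen is meant to read growth: a larger share of the reads with HQ461 is taken to mark a knockout favoured in the drug relative to other cells. Some non-targeting controls rose too, as given below, so a rise alone does not show this. The HQ461 column held 16127620 reads and the DMSO column 14428845, with a median of 111 and 153 reads per sgRNA. Counts were divided by a size factor per column, and the log2 fold change of HQ461 over DMSO was taken with 1 added to each normalized count. An sgRNA or a gene is said to have risen or fallen where this change was at least 2-fold, and the value of a gene is the median of its sgRNAs. Non-targeting controls, which cut no gene, had a median log2 fold change of -0.04 with an SD of 0.87 over 997 sgRNAs, and 95% of them lay between -1.35 and 2.16. Among them 6.82% fell and 11.9% rose past 2-fold. The controls had more reads than targeting sgRNAs, with medians of 525 against 152 with DMSO and 368 against 110 with HQ461. Their spread is therefore that of sgRNAs with more reads than most targeting sgRNAs. Intervals on counts are 95% exact Clopper-Pearson intervals, which cover the counting of PCR reads and nothing else.

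The CCR4-NOT complex carries out most cytoplasmic deadenylation but does not choose its mRNAs, and several of the proteins studied here bring it to them. ZFP36 (tristetraprolin), ZFP36L1 and ZFP36L2 bind AU-rich elements in the 3′ ends of cytokine, growth factor and cell cycle mRNAs through a pair of CCCH zinc fingers and recruit CCR4-NOT. TOB and BTG proteins share an N-terminal domain that binds the CNOT7 and CNOT8 deadenylases, and they are known as antiproliferative proteins. PAN2 is an exonuclease that PAN3 holds on poly(A)-binding protein, and the pair is thought to trim long tails before CCR4-NOT takes over.

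Related genes can share sequence that 1 sgRNA would cut in both, so the coding sequences of the 9 genes were searched on GRCh38 for possible Cas9 sites, meaning 20 bases followed by an NGG motif with the cut inside a coding exon. ZFP36L1 had 228 such sites and ZFP36L2 had 331. They were the closest pair, with 1 site identical between them, 2 pairs of sites that differ at 1 base and 10 pairs that differ at 2. The closest sites, which lie in the zinc-finger coding stretch common to both genes, are shown 5′ to 3′ with differing bases in capitals.
ZFP36L1 and ZFP36L2, identical: ttgtggatgaagtggcagcg
ZFP36L1, chr14:68790044-68790063, minus strand: accatcggcttTtgccccta
ZFP36L2, chr2:43225181-43225200, minus strand: accatcggcttCtgccccta
ZFP36L1, chr14:68790077-68790096, plus strand: cacagctcCgtcttgtactt
ZFP36L2, chr2:43225214-43225233, plus strand: cacagctcGgtcttgtactt
The identical site lies at chr14:68790017-68790036 in ZFP36L1 and at chr2:43225154-43225173 in ZFP36L2, on the plus strand of both. Counted from the 5′ end, the later pairs differ by T12C and C9G from ZFP36L1 to ZFP36L2. Sites within 2 mismatches of a site in another of the 9 genes made up 6.58% of those in ZFP36L1 and 4.23% of those in ZFP36L2, against 1.16% in ZFP36. In the adaptors, TOB1 shared sites at 2 mismatches with TOB2 (1 pair) and BTG1 (2 pairs), and BTG2, PAN2 and PAN3 shared none within 2 mismatches. The table names sgRNAs by number, so which sites the library uses was not analysed here.

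ZFP36L1 sgRNAs fell with HQ461, and so did most of those for ZFP36L2, while ZFP36 sgRNAs did not move together. The 4 ZFP36L1 sgRNAs had 239, 110, 148 and 104 reads with DMSO and, in the same order, 6, 8, 22 and 27 reads with HQ461. All 4 were therefore lower with HQ461. Their log2 fold changes were -4.61, -3.13, -2.18 and -1.39, all past 2-fold, and the gene median was -2.65. In the DMSO column these sgRNAs were ordinary, between the 31.6 and 73.1 percentiles of targeting sgRNAs by abundance, and with HQ461 they lay between the 4.39 and 14.5 percentiles. In sum the reads went from 601 with DMSO to 63 with HQ461, a normalized fold of 6.62 lower, with a log2 interval of -3.13 to -2.35.

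ZFP36L1 ranked 48 of 19111 genes from the most depleted end. A fall of the gene median past 2-fold was seen in 7.69% of all genes, and a fall of all 4 sgRNAs past 2-fold in 0.488% of genes with 4 sgRNAs, as ZFP36L1 showed. Among sgRNAs with DMSO counts within 2-fold of its own, the most depleted ZFP36L1 sgRNA had 0.0334% at or below it and the least depleted one 12.2%, each itself included. Of the non-targeting controls, 0 of 997 were at or below the lowest ZFP36L1 sgRNA and 2.31% were at or below the highest. The controls had a DMSO median of 525 reads, above each ZFP36L1 sgRNA, so they do not show the spread at the read depth of ZFP36L1.

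The sgRNAs of ZFP36L2, its closest relative, had 189, 241, 386 and 93 reads with DMSO and 10, 38, 117 and 39 reads with HQ461 in the same order. Every one of the 4 was lower with HQ461, as in 9% of genes with 4 sgRNAs, with log2 fold changes of -3.61, -2.11, -1.19 and -0.71, and 3 of them fell past 2-fold. The read counts of the 2 columns overlap, since the highest HQ461 count exceeds the lowest DMSO count. The gene median was -1.65, at rank 346 from the depleted end, and the summed reads were 3.09-fold lower after normalization (log2 interval -1.85 to -1.41). At least 3 of 4 sgRNAs fell past 2-fold in 3.74% of genes with 4 sgRNAs.

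ZFP36, the founding member of the family, had 103, 151, 257 and 60 reads with DMSO and 43, 75, 183 and 137 reads with HQ461. Its sgRNAs went in both directions, with log2 fold changes of -0.72, -0.48, 0.04 and 1.70, and the gene median of -0.22 was within 2-fold. The sgRNA that rose was the one with fewest reads in DMSO. On the log2 scale the highest ZFP36L1 sgRNA, at -1.39, was below the lowest ZFP36 sgRNA, at -0.72. The sgRNA ranges of ZFP36 and ZFP36L2 touch at their edges. How often gene pairs have separate ranges was not counted.

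**Figure D1:**
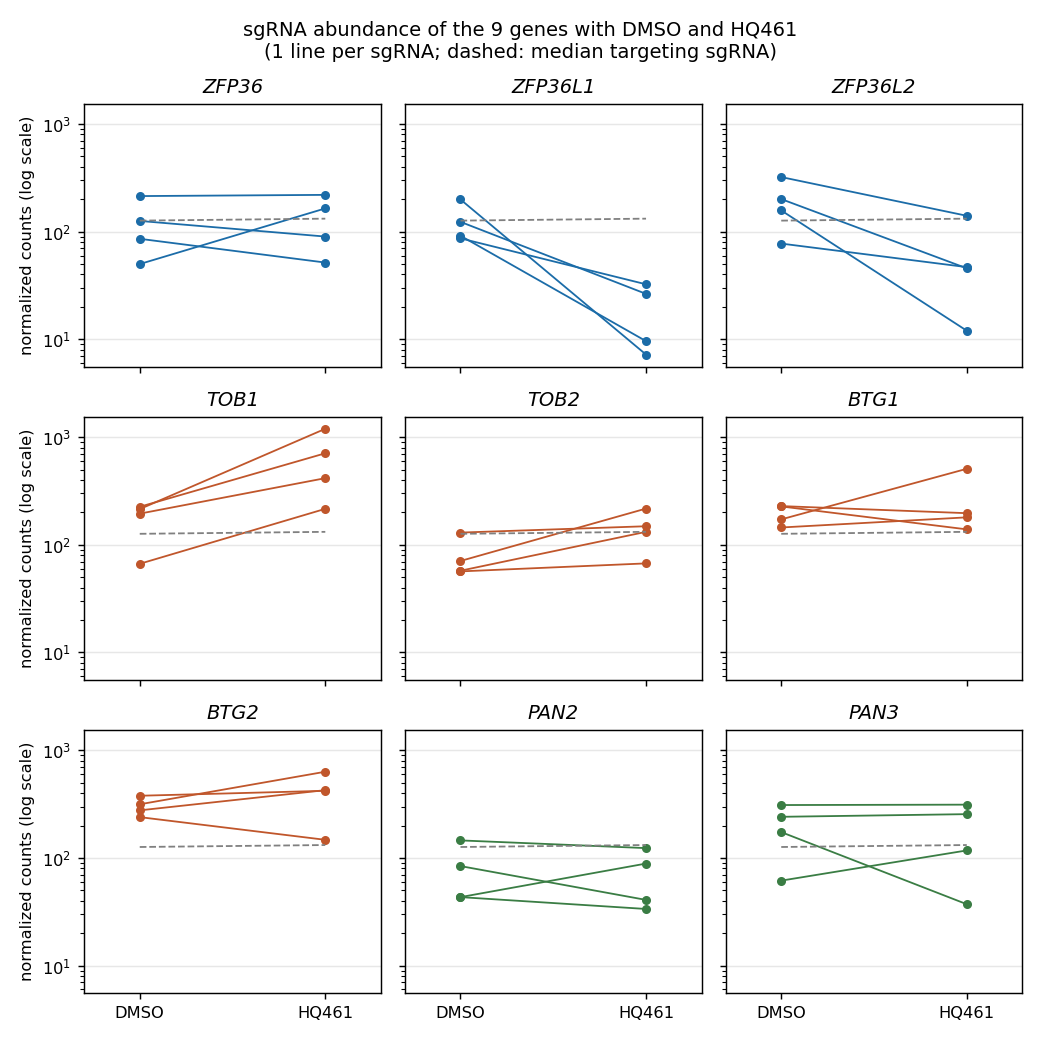
Normalized counts (log scale) of each sgRNA with DMSO and with HQ461, 1 panel per gene and 1 line per sgRNA, with the median targeting sgRNA dashed. All 4 lines go down for ZFP36L1 and ZFP36L2 and up for TOB1 and TOB2. Lines go in both directions for ZFP36, BTG1, BTG2, PAN2 and PAN3.

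TOB1 was the gene of the 9 that rose. TOB1 sgRNAs had 234, 271, 80 and 258 reads with DMSO and 347, 591, 180 and 998 reads with HQ461 in the same order. Each was higher with HQ461, although the counts of the 2 columns overlap. The log2 fold changes were 1.09, 1.65, 1.68 and 2.47, with a gene median of 1.66 at rank 536 from the enriched end, and the summed reads were 3.62-fold higher after normalization (log2 interval 1.74 to 1.97). A rise of the median past 2-fold was seen in 9.01% of all genes, and a rise of all 4 sgRNAs in 1.51% of genes with 4 sgRNAs. TOB1 lies on chromosome 17 (50862223 to 50867978, minus strand, GRCh38), where the remaining genes had a median of 0.97 on the log2 fold change scale, and the 104 genes within 5 Mb had a median of 1.20. TOB1 stood 0.47 above these neighbours, 86 of which were at or below it and 18 above. With the neighbours' median taken off, TOB1 is therefore not past 2-fold, and the part of the chromosome in its rise was not tested.

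TOB2, the closest relative of TOB1, had 156, 68, 69 and 85 reads with DMSO and 124, 56, 110 and 181 reads with HQ461. After scaling all 4 sgRNAs were above 0, at log2 fold changes of 0.19, 0.24, 1.19 and 1.60, and 2 of them rose past 2-fold. All 4 sgRNAs were above 0 in 10.3% of genes with 4 sgRNAs. The gene median was 0.71, within 2-fold. TOB2 lies on chromosome 22 (41433494 to 41446801, minus strand), 0.478 Mb from RBX1, the RING subunit of the CUL4 ligase, whose median log2 fold change was 6.45. The 94 genes within 5 Mb on the RBX1 side of TOB2 had a median of 0.62 and the 66 on the other side a median of 0.04. The part of this position in the TOB2 values was not tested.

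BTG1 and BTG2, smaller relatives of TOB, had medians near 0. BTG1 sgRNAs had 273, 275, 174 and 207 reads with DMSO and 116, 164, 150 and 424 reads with HQ461, for log2 fold changes of -0.70, -0.22, 0.31 and 1.56. One sgRNA alone rose past 2-fold, and the median was 0.05. BTG2, a transcriptional target of p53, had 288, 455, 333 and 379 reads with DMSO and 123, 351, 356 and 528 reads with HQ461, for log2 fold changes of -0.70, 0.15, 0.62 and 1.00. Its median was 0.39, and the 1 sgRNA counted as risen stood at the 2-fold line. The order of the 4 adaptor genes from TOB1 through TOB2 and BTG2 to BTG1 is not a separation at each step, since the sgRNA ranges of every pair of neighbours in this order overlap. The lowest TOB1 sgRNA, at 1.09, was just above the highest BTG2 sgRNA, at 1.00. As above, how often gene pairs have separate ranges was not counted. Genes within 5 Mb had a median of 1.20 for TOB1 and 0.18 for BTG2. The part of chromosome position in this gap was not tested.

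The PAN2-PAN3 deadenylase showed no shared change. PAN2, the catalytic subunit, had 101, 52, 175 and 52 reads with DMSO and 34, 28, 103 and 74 reads with HQ461, for log2 fold changes of -1.03, -0.36, -0.24 and 1.02. It thus had 1 sgRNA just past 2-fold in each direction, and its median was -0.30. PAN3, the adaptor subunit, had 209, 373, 290 and 74 reads with DMSO and 31, 261, 213 and 98 reads with HQ461. Its log2 fold changes were -2.20, 0.01, 0.08 and 0.92, with a median of 0.05, so that 1 sgRNA fell by itself while the other sgRNAs of the gene stayed within 2-fold.

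**Figure D2:**
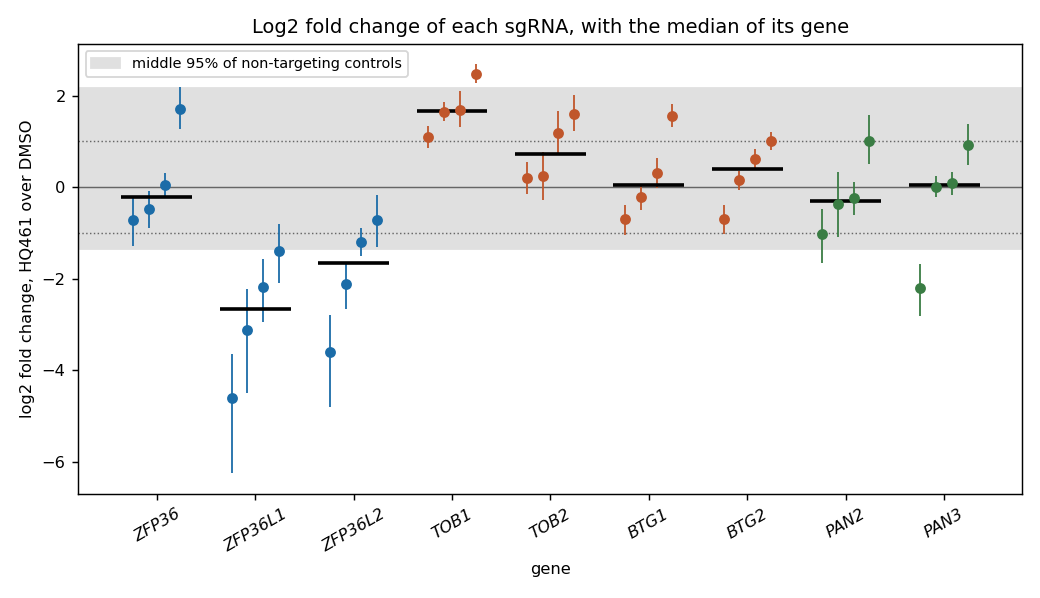
Log2 fold change of HQ461 over DMSO for each sgRNA (points, with 95% counting intervals) by gene, with the gene median as a black bar, dotted lines at 2-fold and the middle 95% of non-targeting controls in grey. ZFP36L1 has 4 sgRNAs below the grey band and ZFP36L2 has 2, TOB1 has 1 above it and PAN3 1 below it. The controls had more reads than targeting sgRNAs (median 525 against 152 with DMSO).

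Across the 36 sgRNAs of the 9 genes, 9 fell past 2-fold (25%) and 10 rose (27.8%). Over all targeting sgRNAs 17.9% fell and 19.5% rose, and among those with DMSO counts within the range of the 9 genes 16.9% fell and 18.3% rose. ZFP36L1 and ZFP36L2 held 7 of the 9 that fell, and TOB1 and TOB2 held 6 of the 10 that rose. The median log2 fold change was 0.02 over the 36 sgRNAs and 0.05 over the 9 genes, against -0.01 and -0.02 over all targeting sgRNAs and all genes. These medians average over genes that fell and genes that rose. The fewest reads of any of the 36 sgRNAs were 52 with DMSO and 6 with HQ461, so none was at the floor of 3 reads.

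ZFP36L1 lies on chromosome 14 (68787660 to 68796253, minus strand) and ZFP36L2 on chromosome 2 (43222402 to 43226606, minus strand), and the genes around them did not share their values. The 70 neighbours of ZFP36L1 within 5 Mb had a median log2 fold change of -0.19, and 1 of them was lower than ZFP36L1. That gene was EIF2S1, the alpha subunit of the translation initiation factor eIF2, at -3.57. The 52 neighbours of ZFP36L2 had a median of -0.03, and 2 of them, SRSF7 at -1.85 and FBXO11 at -1.77, were lower than ZFP36L2. The 3 neighbours were named after their values were seen. For ZFP36, BTG1, BTG2, PAN2 and PAN3 the medians of genes within 5 Mb lay between -0.24 and 0.24.

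**Figure D3:**
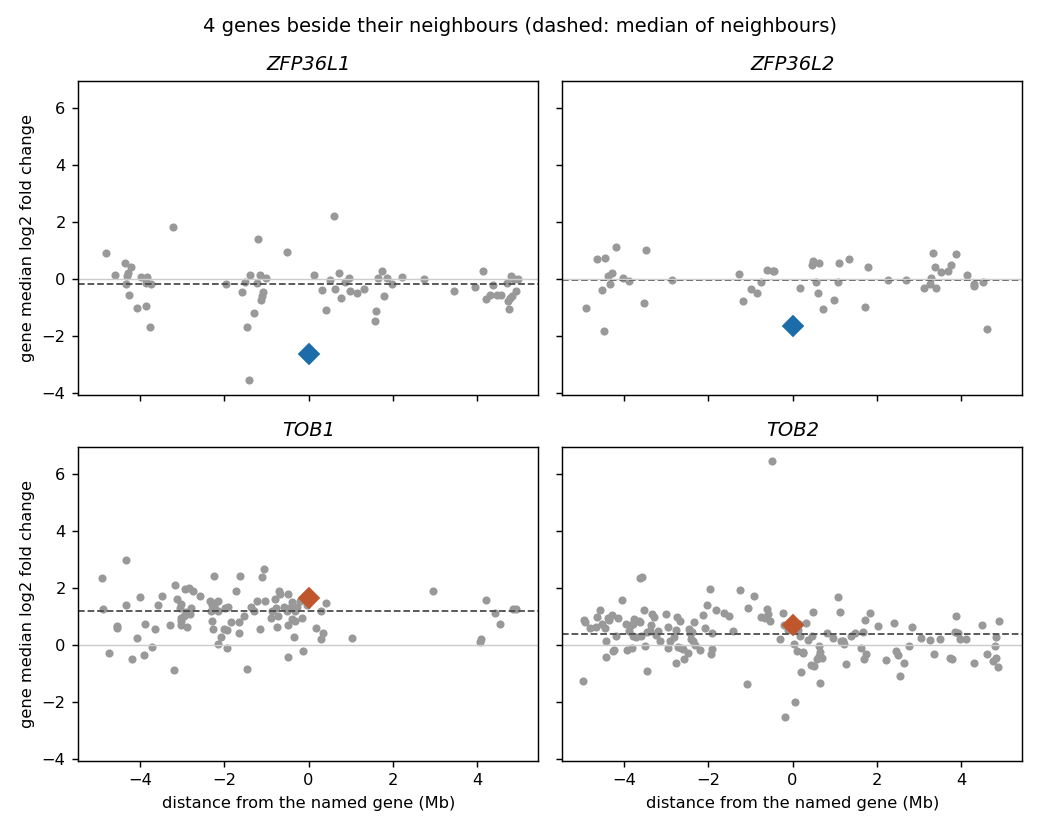
Gene median log2 fold change (HQ461 over DMSO) against distance in Mb from ZFP36L1, ZFP36L2, TOB1 and TOB2 (diamonds), with other genes within 5 Mb as grey points and their median dashed. ZFP36L1 and ZFP36L2 lie below nearly all neighbours, whereas TOB1 lies among neighbours with a median of 1.20.

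Most genes of CCR4-NOT, the complex that several of these proteins recruit, rose with HQ461. Of 12 CCR4-NOT genes 7 rose and 1 fell, where 9.01% of all genes rose and 7.69% fell, and their median log2 fold change was 1.35 against -0.02 over all genes. The largest were RQCD1 (now CNOT9), a subunit that binds recruiting proteins, at 4.77, the ubiquitin ligase CNOT4 at 3.43 and CNOT11 at 2.70. The deadenylase subunits, named here after their values were seen, were not among the genes that rose. CNOT7, which TOB and BTG proteins bind, was at -0.58, CNOT8 at 0.12, CNOT6L at 0.02, and CNOT6 fell to -1.61. TNKS1BP1, named on the same footing, was counted as risen at 1.77 and lies on chromosome 11 among neighbours with a median of 1.69.

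Of 19 other proteins that bring CCR4-NOT to mRNAs, 2 rose and none fell, with a median of 0.13, a share of risen genes close to the 9.01% of all genes. TNRC6B, a scaffold of microRNA silencing, was at 1.92 and the RNA helicase HELZ at 1.20. Their neighbours within 5 Mb had medians of 0.42 on chromosome 22 and 0.89 on chromosome 17. TNRC6B and RBX1, the latter at 6.45, lie within 5 Mb of TOB2 on the same side. Between TNRC6B and RBX1, ADSL was at -1.39, and the other genes ran from 0.85 (XPNPEP3) to 1.70 (MKL1). ADSL, XPNPEP3 and MKL1 were named after their values were seen. The part of this position in the TNRC6B value was not tested. The other BTG family genes, BTG3 and BTG4, were at -0.25 and -0.53. Among 10 genes that bind AU-rich elements or act on ZFP36 proteins, 3 rose and none fell, beside 9.01% and 7.69% of all genes. These were KHSRP at 1.81 and HNRNPD at 1.67, which also promote decay of AU-rich mRNAs, and the phosphatase subunit PPP2CA at 1.18. MAPKAPK2, the kinase that phosphorylates ZFP36, was at 0.72. BTG3, BTG4 and MAPKAPK2 were also named after their values were seen.

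**Figure D4:**
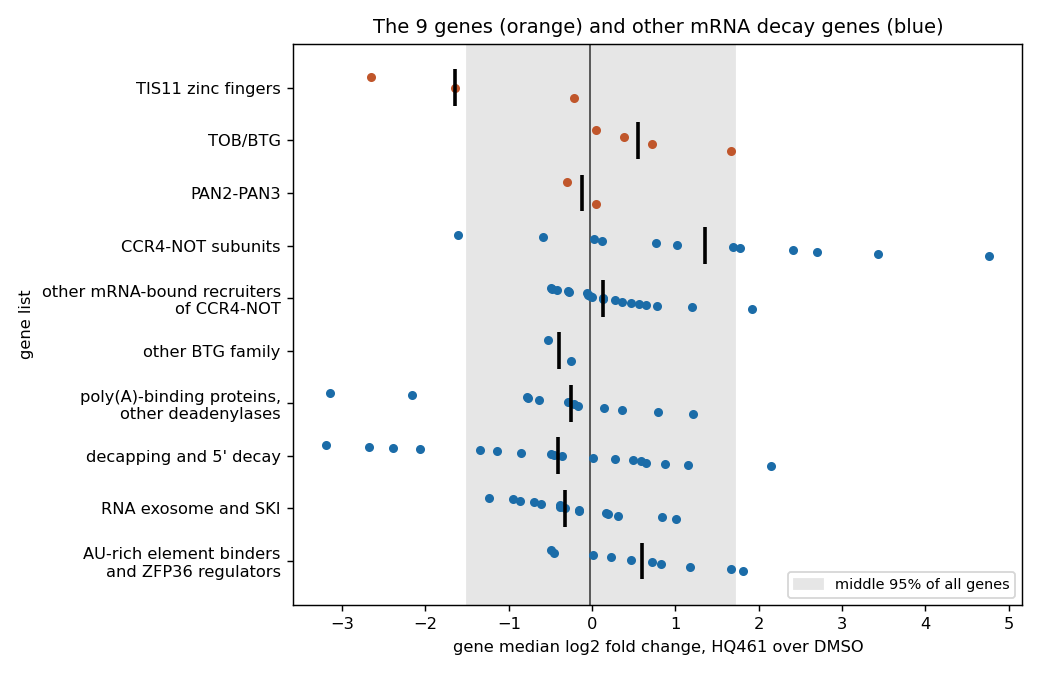
Gene median log2 fold change (HQ461 over DMSO) for the 9 genes (orange) and other genes of mRNA decay (blue) by list, with list medians as black bars and the middle 95% of all genes in grey. ZFP36L1 and ZFP36L2 lie left of the grey band, and CCR4-NOT subunits reach 4.77 on the right.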

How the data were processed

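The authors amplified sgRNA inserts from genomic DNA by PCR, counted reads per sgRNA with MAGeCK 0.5.9.2 and deposited raw counts. The sources used here do not say how the 2 replicates of a condition entered 1 column, so no test was made and MAGeCK's rank test was not repeated. The authors' own comparison was not used. After 273 sgRNAs at 0 in both columns were removed, counts were divided by median-ratio size factors (HQ461 0.833, DMSO 1.20). Python 3.11.15, numpy 2.4.6, pandas 2.3.3 and scipy 1.17.1 were used, with edgeR 4.0.16 for TMM factors. The calculation was tested on simulated counts with counting error alone and the same true change for every sgRNA of a gene. This checked the arithmetic and not the spread between real sgRNAs. Genes were placed by GENCODE 44 on GRCh38, 17761 by symbol and 952 by a RefSeq synonym, and 398 were not placed. The text names the 9 genes and, of each other list, up to 3 genes past 2-fold with the largest change, plus those said to be chosen later. The genes and lists were chosen with earlier results of these data known. The alternatives were other scalings, a pseudocount of 5, a minimum of 30 counts, removal of 1 sgRNA per gene, summed counts and centring on neighbours. Genes of these lists that the text does not name enter the counts and medians alone.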

Additional observations from a re-analysis of the deposited data

How the results depend on the processing

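ZFP36L1 and ZFP36L2 remained past 2-fold lower under all 9 alternatives, with medians of -3.31 to -2.18 and -2.33 to -1.19. Some alternatives could not undo this fall. Total counts and removal of the most enriched sgRNA lowered both medians, and the minimum count removed none of their sgRNAs. The smallest falls, -2.18 and -1.19, came without the most depleted sgRNA of each gene. TOB1 kept its direction at 0.47 to 1.85 but was within 2-fold when scaled by total counts (0.98) or centred on genes within 5 Mb (0.47). Scaling by total counts moved the median of all genes by -0.68, raised the share of all genes that fell from 7.69% to 32.1% and lowered the share that rose to 2.72%. Under it the median of the 9 genes was -0.64, BTG1, BTG2 and PAN3 turned to -0.64, -0.30 and -0.64, 0 of the 9 genes rose, and 15 of the 36 sgRNAs fell and 3 rose. Centring on neighbours gave a median of 0.13, with 0 genes and 6 sgRNAs past 2-fold higher. Summed counts gave 0.14 and turned ZFP36 to 0.14 and PAN3 to -0.12. With summed counts the median of all genes was 0.22, above the 0.14 of ZFP36, and 18.1% of all genes rose. Without the most enriched sgRNA of each gene the median was -0.22 and BTG1 turned to -0.22, while 17.4% of all genes fell. Of the 27 sgRNAs left 4 rose, a number that this removal lowers by its design. Without the most depleted one 2 genes rose, TOB2 joining TOB1 at 1.19, and ZFP36 turned to 0.04, while 18.2% of all genes rose. Of the 27 sgRNAs left here 5 fell, a number likewise lowered by design. TMM factors, scaling by non-targeting controls, a pseudocount of 5 and the minimum count, which removed none of the 36 sgRNAs, left these counts within 1.5 times. No paired analysis was possible because both replicates of a condition share a column. The replicate block and leaving out a replicate therefore were not run. Few reads limit the size of the deepest falls, as the interval of the ZFP36L1 sgRNA with 6 reads runs from -6.25 to -3.65.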

Other observations

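Genes that act after deadenylation gave mixed values. Of 18 decapping and 5′ decay genes 6 fell and 2 rose, with a median log2 fold change of -0.41, against 7.69% and 9.01% of all genes. All 6 that fell were LSM genes (LSM1, LSM2, LSM3, LSM5, LSM6 and LSM7), while LSM4 was at 0.58. The decapping genes DCP1A, DCP1B and DCP2 were at 0.01, -0.37 and 0.49, and the 5′ decay gene XRN1 at -0.49. Apart from LSM2, LSM3 and LSM7, these genes were named after their values were seen. The largest changes were LSM3 at -3.19, LSM2 at -2.68 and LSM7 at -2.39, whose proteins belong to the LSM rings of both mRNA decay and the U6 snRNA. These 3 genes had few reads. Summed over 4 sgRNAs, LSM3 had 130 reads with DMSO and 123 with HQ461, LSM2 had 106 and 22, and LSM7 had 75 and 71. In LSM3 and LSM7, 3 sgRNAs fell and 1 rose, so the summed reads do not show the fall of the median. PATL1, a decapping activator named after its value was seen, rose to 2.15 and lies on chromosome 11 among neighbours with a median of 1.49.

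Of 12 poly(A)-binding proteins and other deadenylases 2 fell and 1 rose, with a median of -0.25, beside 7.69% and 9.01% of all genes. TOE1, a deadenylase of small nuclear RNAs, stood at -3.14, rank 16 from the depleted end, with 415 reads with DMSO and 105 with HQ461, and 3 of its 4 sgRNAs fell. PABPC3 was at -2.16 and PABPC5 at 1.21. In PABPC3 2 of 4 sgRNAs fell, and its summed reads were 820 with DMSO and 540 with HQ461. Of 15 RNA exosome and SKI genes 1 fell and 1 rose, EXOSC2 at -1.24 and EXOSC10 at 1.00, which is no larger a share than the 7.69% and 9.01% of all genes. EXOSC2 had 29 reads in sum with DMSO.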
